A study of Marmota monax with 203 samples.

Results

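Woodchucks chronically infected with woodchuck hepatitis virus (WHV), a close relative of hepatitis B virus, were biopsied 4 and 8 weeks after the end of dosing with woodchuck interferon-α (wIFN-α) or placebo. These biopsies, taken at study weeks 19 and 23, make up 26 of the 164 liver biopsies of the series. They were chosen by the labelled week (20 and 24 in the labels, which run 1 week ahead of the study weeks) and the labelled agent. The wIFN-α animal M1004 was left out, since it was thought to be clearing the virus on its own when dosing began. The same 6 wIFN-α animals (F1013, F1014, F1018, F1022, M1003 and M1012) gave a biopsy at both weeks. Placebo biopsies came from 5 animals at week 19 (M1005, M1008, M1011, F1016 and F1019) and from 9 at week 23, when M1001, M1009, F1015 and F1021 were added. The letter before each number gives the sex, with 2 males and 4 females in the wIFN-α group and 5 males and 4 females in the placebo group.

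All animals were chronic carriers infected as newborns, and all were injected under the skin 3 times per week for 15 weeks. The wIFN-α animals received 20 μg per dose for 7 weeks and then 100 μg for 8 weeks, and the placebo animals received placebo. Animals that died earlier in the study have no biopsy at these weeks, so the comparison is between animals that lived to follow-up. The wIFN-α animal M1002 also lived to follow-up but was biopsied only later, so it is absent here. The paper classed it as a responder to treatment. The question was what remained of the response in the liver after the interferon had been withdrawn.

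Interferon-α binds a receptor on nearly every nucleated cell and switches on interferon-stimulated genes (ISGs) that block viral replication. Its transcripts are made quickly and decay once the signal ends. In chronic hepatitis B the drug is given for months, and virus often returns after its withdrawal.

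Each biopsy had 14.3 to 52.9 M reads on genes (median 26.9 M), with 14.3 to 27.0 M in the placebo biopsies and 24.5 to 41.2 M in the wIFN-α biopsies of week 19. Levels are given as CPM, counts scaled to the library size after TMM normalization. The tissue was liver in every biopsy, with ALB (albumin) at 13200 CPM or more, and the male-linked KDM5D split the biopsies by labelled sex (60.0 to 165 CPM in 12 male and 6.93 to 13.5 CPM in 14 female biopsies). Of 20 skeletal muscle genes, the summed level was 7220 CPM in wIFN-α animal F1022, 9200 CPM in wIFN-α animal F1013 and 10900 CPM in placebo animal M1005 at week 19, against 141 to 389 CPM in the other 23 biopsies. Placebo animals M1005 and M1008 lay farthest from the rest at week 23, with median correlations to the other biopsies of 0.915 and 0.916.

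The interferon-stimulated genes that were high on dosing did not differ beyond the spread between animals in either follow-up week. RSAD2 (viperin, an antiviral enzyme) stood at 2290 to 4070 CPM in the 6 followed wIFN-α animals at week 15, taken 6 hours after a dose, against 17.6 to 30.5 CPM in 8 placebo animals. At week 19 it was at 19.3 to 26.4 CPM (median 22.0) in the wIFN-α group, and at 19.3, 21.9, 19.4, 25 and 30.8 CPM in placebo animals M1005, M1008, M1011, F1016 and F1019. At week 23 the ranges were 19.1 to 26.1 CPM (median 21.7) and 17 to 35.8 CPM (median 25.3). The groups overlapped at both weeks. The log2 fold change of wIFN-α against placebo was 7.28 (SE 0.166) at week 15 and -0.10 (SE 0.112) over both follow-up weeks, with an adjusted p of 0.663 (limma voomLmFit with the animal as a block, Benjamini-Hochberg).

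**Figure D1:**
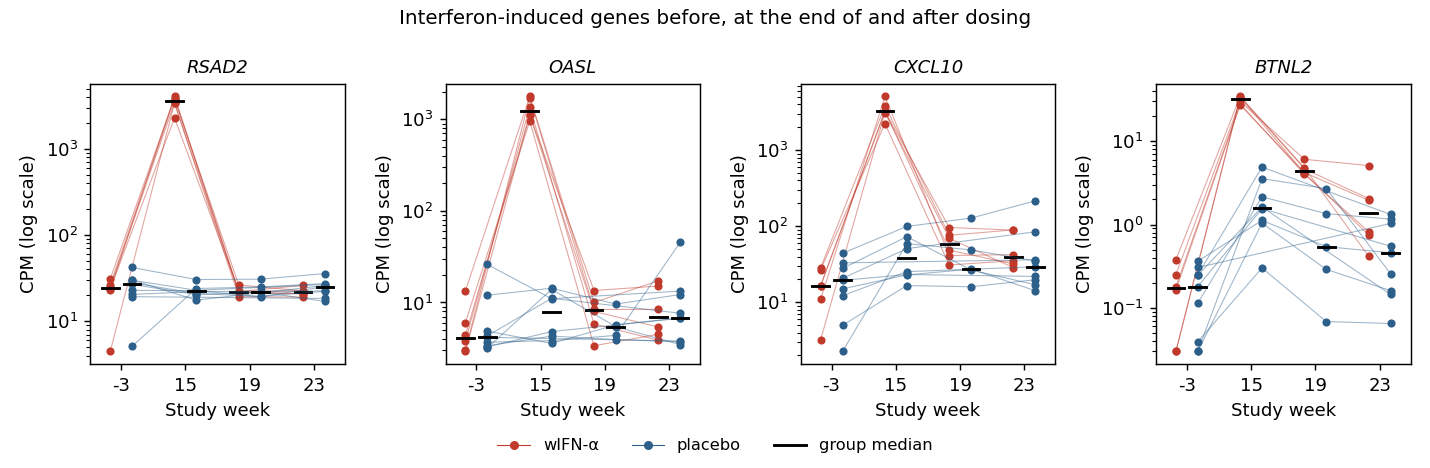
Level of RSAD2, OASL, CXCL10 and BTNL2 (CPM, log scale) against study week, with 1 point per biopsy, lines joining biopsies of the same animal, red for wIFN-α, blue for placebo and black bars for group medians; values under 0.03 CPM are drawn at 0.03. RSAD2, OASL and CXCL10 of the wIFN-α animals stood apart at week 15 and overlapped the placebo animals at weeks 19 and 23, while BTNL2 at week 19 lay at 4.01 to 6.06 CPM in wIFN-α and at 0.0684 to 2.70 CPM in placebo animals.

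OASL, an oligoadenylate synthetase-like protein, was at 957 to 1780 CPM in the wIFN-α animals at week 15. It was at 3.37 to 13.5 CPM (median 8.19) in them at week 19, where the 5 placebo animals were at 4.37, 9.60, 5.43, 3.93 and 5.70 CPM in the order above. The week 23 levels were 3.87 to 17.2 CPM (median 6.90) in wIFN-α and 3.47 to 45.2 CPM (median 6.78) in placebo animals. Both groups overlapped at both weeks, and the highest value was that of a placebo animal, M1005. OASL had a log2 fold change of 7.33 (SE 0.368) on dosing and 0.16 (SE 0.408) after it (adjusted p = 0.859, voomLmFit, Benjamini-Hochberg). CXCL10, a chemokine that draws activated T cells, had been at 2240 to 5100 CPM at week 15 and was at 30.9 to 96.2 CPM (median 58.9) at week 19, against 16.0, 128, 26.6, 48.8 and 27.3 CPM in the placebo animals. Placebo animal M1008 had the highest CXCL10 level at both follow-up weeks (128 and 216 CPM).

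ISG15, a ubiquitin-like protein, showed a single high placebo biopsy. It was at 3.28 to 13.4 CPM (median 5.61) in wIFN-α animals at week 19 and at 8.41, 12.1, 7.12, 8.05 and 7.69 CPM in placebo animals, so that the groups overlapped. At week 23 placebo animal M1005 was at 518 CPM and the other 8 placebo animals at 5.36 to 41.9 CPM, with wIFN-α animals at 3.69 to 27.0 CPM. The log2 fold change over both weeks was -0.90 (SE 0.690, adjusted p = 0.495, voomLmFit, Benjamini-Hochberg).

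As a group, 48 of 50 type I ISGs tested had been called higher at week 15 (median log2 fold change 3.58). A gene was called where its adjusted p was below 0.05 and its fold change over 1.5. Of all 14943 genes tested at week 15 in 8 wIFN-α and 9 placebo animals, 22.3% were called, 2008 of them higher. Over weeks 19 and 23, 0 of 49 were called, the median was 0.03 where that of all genes was -0.01, and 4 had an unadjusted p under 0.05 in the higher and 0 in the lower direction, where 9.63% and 7.35% of all genes did. DESeq2, which had no term for the animal, called 2 of the 49. The 4 were LY6E (log2 fold change 1.01, SE 0.392), the RNA sensors DHX58 (0.62, SE 0.193) and IFIH1 (0.44), and LGALS3BP (0.43), and none passed the adjusted test. The summed level of the list was 4430 to 6960 CPM in wIFN-α and 3480 to 4920 CPM in placebo animals at week 19, and 3870 to 7480 and 3360 to 7300 CPM at week 23. Of the IFN-γ inducible genes, 22 of 23 had been called at week 15 and 0 of 23 were called afterwards, with 1 under an unadjusted p of 0.05.

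The wider set of genes raised on dosing was followed in the same way. Of these 2008 genes, 1940 were tested over weeks 19 and 23 by voomLmFit, and 0 were called. At an unadjusted p under 0.05, 130 were higher (6.70%) and 118 lower (6.08%), where 9.63% and 7.35% of all genes were. Their median log2 fold change was 1.13 on dosing and -0.07 after it. Of 1319 genes called lower at week 15, 1316 were tested afterwards and 1 was called, in the same direction (OBSL1), with a median of -0.87 on dosing and -0.07 after it. At an unadjusted p under 0.05, 8.28% were higher and 10.26% lower over both weeks, where 9.63% and 7.35% of all genes were. By the edgeR quasi-likelihood test these shares were 3.37% and 12.55% at week 19 (all genes 5.92% and 6.71%). At week 23 they were 6.65% and 10.02% (all genes 7.66% and 8.49%). The animals of both comparisons are largely the same ones, so their differences are not independent.

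BTNL2, a butyrophilin-like protein that restrains T cell activation, was the raised gene with the largest remaining difference among the 10 with the smallest p in the higher direction. It was at 27.2 to 34.5 CPM in the wIFN-α animals at week 15. At week 19 all 6 wIFN-α animals (4.01 to 6.06 CPM, median 4.42) were above the 5 placebo animals, which were at 0.0684, 0.543, 1.35, 2.70 and 0.289 CPM. At week 23 the groups overlapped, at 0.415 to 5.10 CPM (median 1.38) and 0.0649 to 1.32 CPM (median 0.458). Its log2 fold change was 3.91 (SE 0.354) at week 15, 2.21 (SE 0.579) at week 19 and 1.71 (SE 0.608) at week 23. Over both weeks it was 2.28 (SE 0.505), with an unadjusted p of 0.000113 and an adjusted p of 0.0941 (voomLmFit, Benjamini-Hochberg), which missed the threshold. The decline from week 19 to 23 was not distinguishable between groups, with an interaction of -0.56 on the log2 scale (SE 0.724, adjusted p = 0.794, edgeR quasi-likelihood test, Benjamini-Hochberg).

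Across all genes the follow-up biopsies of both groups were then compared. In the fit of both weeks, 4 of 15040 genes were called (0.0266%), 1 higher and 3 lower, each at an adjusted p of 0.0485 (voomLmFit, Benjamini-Hochberg), and 2553 genes had an unadjusted p under 0.05. Tested by week with the edgeR quasi-likelihood test, 0 of 14715 genes (0%) were called at week 19 and 0 of 14956 (0%) at week 23, with 1859 and 2416 genes under an unadjusted p of 0.05 and smallest adjusted p of 0.215 and 0.252. DESeq2 called 89 and 53 genes at these weeks and 482 over both. The count of 4 was unstable: it was 15 without M1001, 18 without M1011, 8 without F1018, 1 without F1013 or F1016, and 0 without any one of M1003, M1005, M1008, M1012, F1014, F1015, F1019 and F1022. Without the 3 biopsies that hold muscle it was 0, as it was without both M1005 and M1008.

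SUCLG2, a subunit of the succinyl-CoA ligase of the citric acid cycle, was the gene called higher. It was at 134 to 223 CPM (median 194) in wIFN-α animals at week 19, and at 113, 113, 143, 155 and 122 CPM in placebo animals. The week 23 levels of SUCLG2 were 123 to 188 CPM (median 157) and 77.6 to 128 CPM (median 92.3). At week 23, 5 of 6 wIFN-α animals were above every placebo animal. The log2 fold change over both weeks was 0.62 (SE 0.109), and over single animals left out it stayed at 0.56 to 0.69, with 7 of 15 such fits under an adjusted p of 0.05 (range 0.0125 to 0.184).

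OBSL1, a cytoskeletal adaptor of the obscurin family, was called lower in the wIFN-α animals. It was at 9.57 to 23.2 CPM (median 15.5) in them at week 19, under all 5 placebo animals (24.6, 25.3, 31.3, 36.1 and 37.8 CPM). At week 23 wIFN-α animal F1018 was at 41.3 CPM and the other 5 at 12.5 to 18.0 CPM, under the placebo range of 26.8 to 55.3 CPM. OBSL1 had a log2 fold change of -1.03 (SE 0.187). OBSL1 was also lower on dosing (-0.61 at week 15, SE 0.213), and in 5 of 15 fits without 1 animal its adjusted p was under 0.05 (0.00198 to 0.193).

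SLC17A9, the vesicular nucleotide transporter that loads ATP, had the largest fold change of the 4 (-1.58 on the log2 scale, SE 0.299). At week 19 it was at 0.463 to 2.08 CPM (median 0.917) in wIFN-α animals and at 2.60, 2.53, 1.69, 1.82 and 5.54 CPM in placebo animals, with 1 wIFN-α animal (F1018) inside the placebo range. At week 23 the groups did not overlap, at 0.609 to 2.02 CPM and 2.61 to 8.01 CPM. It was one of 9 genes with all wIFN-α animals below all placebo animals at that week (0.0602% of genes tested), and 7 genes (0.0468%) had all of them above. Before dosing it was at 1.52 to 11.1 CPM and 0.717 to 14.8 CPM, and at week 15 the log2 fold change was 0.09 (SE 0.287).

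MIR100HG, the long noncoding host transcript of a microRNA cluster, was at 4.09 to 6.23 CPM (median 5.09) in wIFN-α animals at week 19 and at 10.7, 7.88, 5.81, 5.75 and 6.82 CPM in placebo animals. At week 23, 5 of 6 wIFN-α animals (4.55 to 6.91 CPM in all 6, median 5.36) were below every placebo animal (6.75 to 11.7 CPM, median 9.76). MIR100HG had a log2 fold change of -0.68 (SE 0.129), and its adjusted p without 1 animal ran from 0.02 to 0.19. WBP1, a WW domain binding protein, also had an adjusted p of 0.0485 (voomLmFit, Benjamini-Hochberg), but its log2 fold change of 0.54 (SE 0.102) was under the fold threshold.

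**Figure D2:**
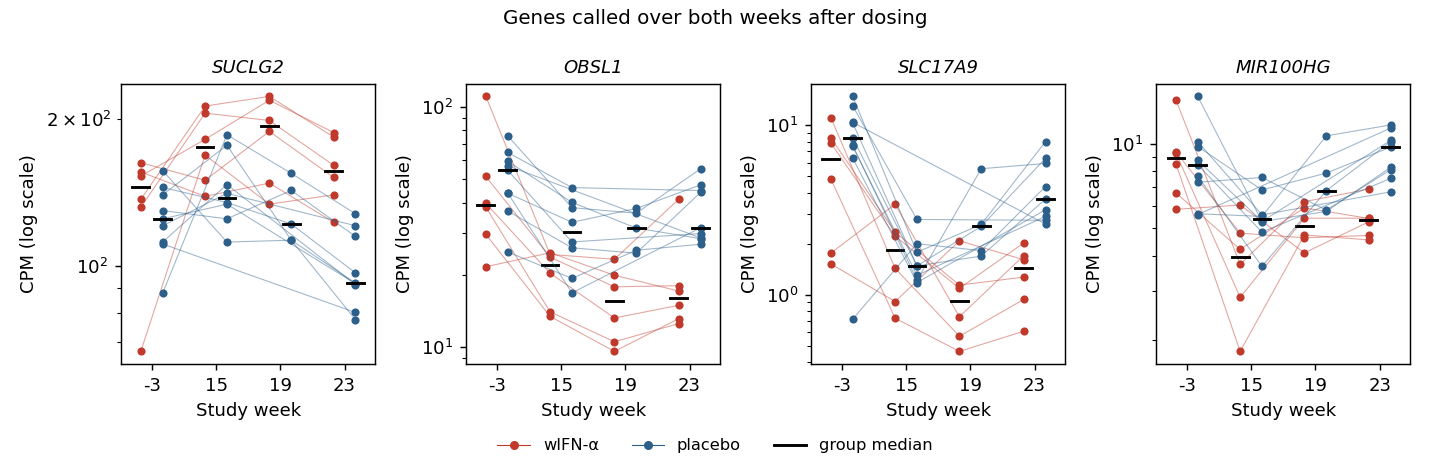
Level of the 4 genes called over both follow-up weeks (CPM, log scale) against study week, with 1 point per biopsy, lines joining biopsies of the same animal and black bars for group medians (red wIFN-α, blue placebo). At week 19 all wIFN-α animals were below all placebo animals for OBSL1, and at week 23 for SLC17A9 (0.609 to 2.02 against 2.61 to 8.01 CPM).

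Other genes with a small unadjusted p missed the threshold. NNMT, which methylates nicotinamide, was at 58.3 to 151 CPM (median 101) in wIFN-α animals at week 19 and at 8.48, 33.9, 66.0, 37.4 and 18.1 CPM in placebo animals. At week 23 the ranges were 24.0 to 118 CPM and 2.63 to 44.0 CPM. Its log2 fold change was 1.91 (SE 0.403, adjusted p = 0.0737, voomLmFit, Benjamini-Hochberg). PLXNB2, a semaphorin receptor, was at 361 to 783 CPM against 180, 163, 520, 348 and 332 CPM at week 19, and at 226 to 470 CPM against 133 to 253 CPM at week 23 (log2 fold change 0.96, SE 0.196, adjusted p = 0.0591, voomLmFit, Benjamini-Hochberg). On the higher side SPG7 (a mitochondrial protease), SLC2A9 (a urate transporter), SIPA1L1, TSPAN9, TMEM201, GPT2 (an alanine aminotransferase), DLG3 and KIAA1328 had log2 fold changes of 0.51 to 1.19. On the lower side GNG11, SLC22A7 (an organic anion transporter of hepatocytes), OXTR, ENDOD1, GEN1, ABCC5 and EGFLAM had log2 fold changes of -1.21 to -0.42. None of these passed the adjusted test.

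The genes of lipid synthesis stood higher in the wIFN-α animals as a list, without any member being called. Hepatocytes make fatty acids from citrate through ACLY, ACACA and FASN under control of SREBF1, and sterols under control of SREBF2. Of 20 fatty acid synthesis genes, 19 were higher, 16 of them at an unadjusted p under 0.05 where 9.63% of all genes were, and 0 were called (voomLmFit; DESeq2 called 8). Their median log2 fold change was 1.16, where that of all genes was -0.01. The median was 0.64, with 3 genes under 0.05, without placebo animals M1005 and M1008. The number under 0.05 also dropped to 10 without M1005, to 9 without any one of M1003, M1008, M1012 and F1014, to 8 without F1022, and to 10 without the 3 biopsies that hold muscle.

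**Figure D3:**
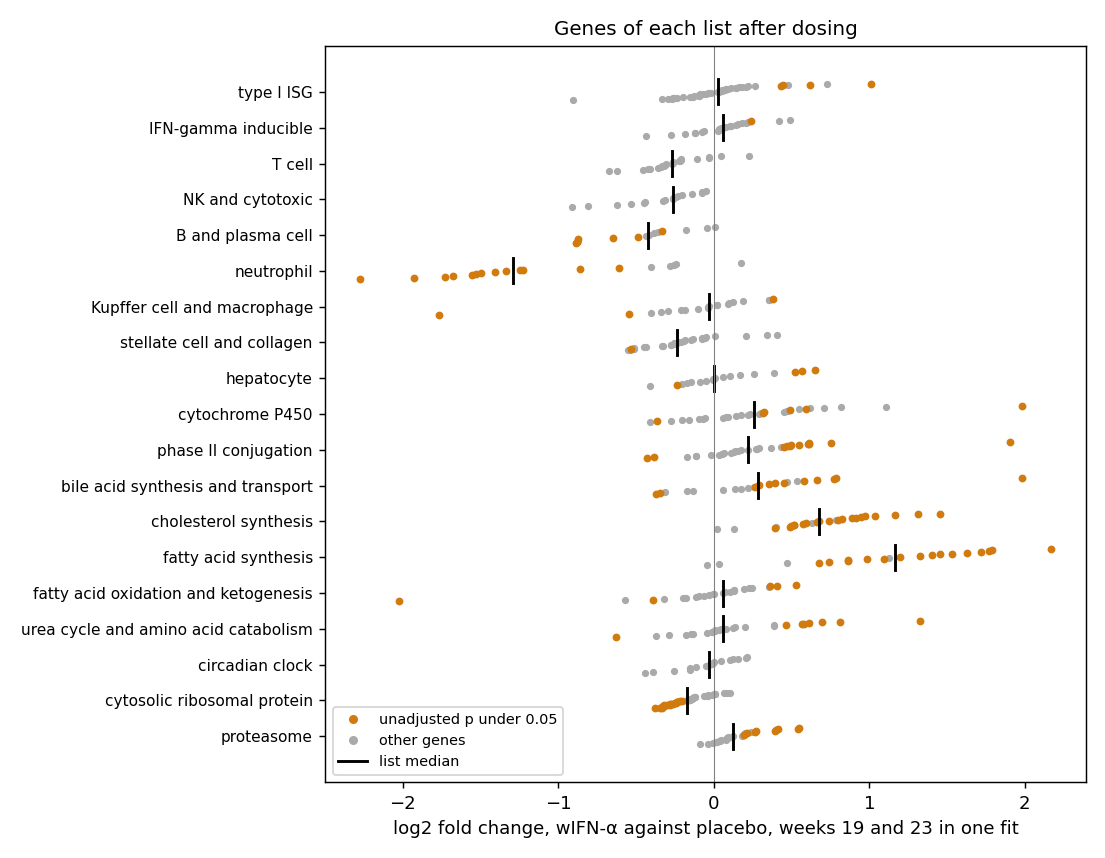
Log2 fold change of wIFN-α against placebo over weeks 19 and 23 for each gene (points) of 19 lists, orange where the unadjusted p is under 0.05, with black bars at the list median. Fatty acid synthesis (median 1.16) and cholesterol synthesis genes (median 0.67) lie to the right and neutrophil genes (median -1.29) to the left, while type I ISGs centre on 0.03.

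ACLY, which makes cytosolic acetyl-CoA from citrate, was the list's only gene without overlap at week 19. It was at 345 to 1310 CPM (median 555) in wIFN-α animals and at 96.9, 40.8, 309, 189 and 232 CPM in placebo animals. The week 23 levels were 37.3 to 713 CPM (median 304) and 16.3 to 439 CPM (median 64.7), so that the groups overlapped. In the whole table, 103 genes (0.7%) had all wIFN-α animals above all placebo animals at week 19 and 103 (0.7%) had all below. The log2 fold change of ACLY was 1.63 (SE 0.606, adjusted p = 0.21, voomLmFit, Benjamini-Hochberg).

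FASN, the fatty acid synthase, was at 5200 to 12500 CPM (median 8710) in wIFN-α animals at week 19, and at 2410, 187, 9940, 5480 and 5750 CPM in placebo animals. Week 23 gave 1250 to 8730 CPM (median 6470) and 222 to 5860 CPM (median 2360). Placebo animal M1008 was the lowest at both weeks (187 and 222 CPM), and the groups overlapped at both. FASN had a log2 fold change of 1.40 (SE 0.635, adjusted p = 0.267, voomLmFit, Benjamini-Hochberg). AACS, which activates acetoacetate for lipid synthesis, had the largest log2 fold change of the list (2.17, SE 0.565, adjusted p = 0.144, voomLmFit, Benjamini-Hochberg). It was at 60.3 to 135 CPM against 10.7, 2.49, 93.3, 24.4 and 34.4 CPM at week 19, and at 4.24 to 49.3 CPM against 1.63 to 36.1 CPM at week 23.

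All 25 cholesterol synthesis genes tested were higher in the wIFN-α animals, 20 of them at an unadjusted p under 0.05, where 9.63% of all genes were. Of the 25, 0 were called by voomLmFit and 5 by DESeq2. The median log2 fold change was 0.67. The number under 0.05 was 13 without M1005, 13 without M1008, 4 without both, and 10 without the 3 biopsies that hold muscle. STARD4, a sterol carrier, had the largest log2 fold change (1.45, SE 0.389, adjusted p = 0.15, voomLmFit, Benjamini-Hochberg).

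**Figure D4:**
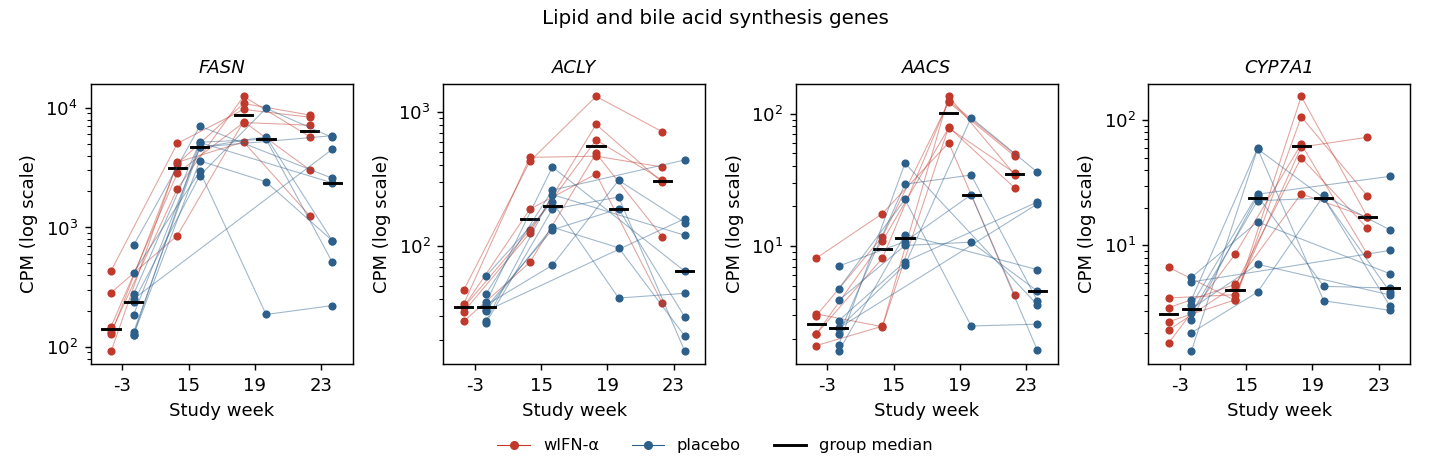
Level of FASN, ACLY, AACS and CYP7A1 (CPM, log scale) against study week, with 1 point per biopsy, lines joining biopsies of the same animal and black bars for group medians (red wIFN-α, blue placebo). At week 19 the wIFN-α animals were above all placebo animals for ACLY (345 to 1310 against 40.8 to 309 CPM) and CYP7A1 (25.8 to 154 against 3.62 to 25 CPM), and at week 23 the groups overlapped for all 4 genes.

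These lists also moved over time in both groups. The summed level of the fatty acid synthesis genes was 1100 to 2410 CPM in wIFN-α and 1520 to 4120 CPM in placebo animals at week -3, and 10000 to 28800 and 21200 to 32700 CPM at week 15. It was 28400 to 58100 CPM in wIFN-α and 1890 to 42300 CPM in placebo animals at week 19, and 8280 to 47800 and 1910 to 30800 CPM at week 23. At weeks 15, 19 and 23 the sum was above the week -3 range of the wIFN-α group in all its animals, while the lowest placebo animals lay within the placebo range of week -3 at weeks 19 and 23.

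CYP7A1, the rate-limiting enzyme of bile acid synthesis, had been called lower on dosing (log2 fold change -2.33, SE 0.436, at week 15) and stood higher afterwards. It was at 25.8 to 154 CPM (median 62.4) in wIFN-α animals at week 19, above all placebo animals (4.72, 3.62, 25, 23.9 and 23.8 CPM). In week 23 CYP7A1 was at 8.48 to 72.7 CPM (median 16.7) and 3.04 to 35.5 CPM (median 4.57). The log2 fold change over both weeks was 1.98 (SE 0.478, unadjusted p = 0.00031, adjusted p = 0.12, voomLmFit, Benjamini-Hochberg). Of 24 bile acid synthesis and transport genes, 10 were higher and 2 lower at an unadjusted p under 0.05, where 9.63% and 7.35% of all genes were. Of the 24, 0 were called (DESeq2 called 2). The higher ones numbered 6 without F1022 and 4 without M1005 and M1008.

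Other hepatocyte lists had smaller medians. At an unadjusted p under 0.05, 9.63% of all genes were higher and 7.35% lower. Of 30 cytochrome P450 genes, 5 were higher and 1 lower at that level, and of 31 phase II conjugation genes 10 and 2 were. In either list 0 were called by voomLmFit (DESeq2 called 2 of the phase II genes). The 10 phase II genes became 5 without M1003, 5 with lane as a covariate and 4 without M1005 and M1008. Many genes of these families have close copies, among which the counting may divide reads. Of 26 genes of the urea cycle and amino acid catabolism, 7 were higher and 1 lower at that level. Cytosolic ribosomal protein genes were lower by a small margin, with 21 of 44 under 0.05 in that direction and a median log2 fold change of -0.17 (31 under 0.05 with DESeq2, 9 without M1005 and M1008). The metallothionein MT2A, which binds zinc and answers to glucocorticoids, had one of the larger differences of week 19, at 0.842 to 3.28 CPM in wIFN-α animals and 18.7, 67.9, 10.1, 19.2 and 5.83 CPM in placebo animals (log2 fold change -3.49, SE 0.603, adjusted p = 0.215, edgeR quasi-likelihood test, Benjamini-Hochberg). At week 23 its groups overlapped (3.96 to 104 and 2.97 to 92.3 CPM).

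Of the immune cell lists, that of neutrophils stood lowest in the wIFN-α animals. Of 18 neutrophil genes, 17 were lower, 13 of them at an unadjusted p under 0.05 where 7.35% of all genes were, and 0 were called (voomLmFit; DESeq2 called 11). The median log2 fold change was -1.29, and the number under 0.05 was 8 without F1014, 8 with lane as a covariate and 9 without M1005 and M1008. The summed level was 57.5 to 152 CPM in wIFN-α and 123 to 227 CPM in placebo animals at week 19, and 61.8 to 177 and 137 to 655 CPM at week 23, where placebo animal F1015 was highest. In pieces of whole liver, fewer cells of a type and less RNA per cell cannot be told apart.

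CSF3R, the receptor for granulocyte colony-stimulating factor, was called higher at week 15 (log2 fold change 2.59, SE 0.333), with 5.17 to 21.3 CPM in wIFN-α and 0.744 to 4.69 CPM in placebo animals. At week 19 it was at 0.388 to 1.98 CPM in wIFN-α animals and at 1.44, 1.86, 0.809, 1.62 and 0.827 CPM in placebo animals, with overlap. At week 23, 5 of 6 wIFN-α animals were below every placebo animal (0.724 to 2.73 against 1.92 to 12.4 CPM). The log2 fold change over both weeks was -1.23 (SE 0.356, adjusted p = 0.172, voomLmFit, Benjamini-Hochberg). S100A12, an alarmin of neutrophils, was at 0.253 to 1.04 CPM against 5.33, 2.13, 0.616, 1.18 and 0.951 CPM at week 19, and at 0.412 to 1.92 CPM against 1.05 to 42.1 CPM at week 23 (log2 fold change -1.93, SE 0.631, adjusted p = 0.181, voomLmFit, Benjamini-Hochberg).

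Lymphocyte genes gave smaller differences in the same direction. Among 14 genes of B and plasma cells, 6 stood lower at an unadjusted p under 0.05, where 7.35% of all genes did. Of the 14, 0 were called (DESeq2 called 3), with a median log2 fold change of -0.43. Of 23 T cell genes, 18 had been called higher at week 15, as were 2008 of all 14943 genes tested. Over weeks 19 and 23, 21 of the T cell genes were lower, 2 were higher and 0 were under 0.05 in either direction (median -0.27). The T cell median was -0.10 without F1022, -0.13 without F1014, -0.14 without M1008 (8 higher and 15 lower), -0.09 without M1005 and M1008, -0.10 with lane as a covariate, -0.43 without M1011 (2 under 0.05) and -0.56 without F1013 (4 under 0.05). All 17 NK and cytotoxic genes were lower, with 0 under 0.05. The mitosis list, with 26 of 28 genes called higher at week 15 (2008 of 14943 over all genes), had 0 of 28 under 0.05 afterwards.

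The difference between groups was next compared across the 2 follow-up weeks, within the 11 animals that had both biopsies. The interaction of agent and week was called for 0 of 15826 genes (0%) by the edgeR quasi-likelihood test with the animal as a block, with 1600 under an unadjusted p of 0.05 and a smallest adjusted p of 0.0939, while DESeq2 called 75. The edgeR count was 4 without F1022 and 3 without the 3 animals whose week 19 biopsy holds muscle. NPAS2 and DBP, of the circadian clock, were among the 5 genes with the smallest p. ARNTL, the clock activator also known as BMAL1, was at 3.29 to 19.6 CPM in wIFN-α animals at week 19 and at 4.99, 1.86, 5.74, 1.03 and 3.35 CPM in placebo animals. At the later week ARNTL was at 0.968 to 14.4 CPM and, in the same 5 placebo animals, at 10.2, 7.13, 12.2, 2.89 and 10.1 CPM. Its level was lower at week 23 in 5 of 6 wIFN-α animals and higher in 5 of 5 placebo animals. The interaction was -2.17 on the log2 scale (SE 0.364, adjusted p = 0.127, edgeR quasi-likelihood test, Benjamini-Hochberg).

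DBP, a clock output factor that peaks in opposite phase to ARNTL, moved the other way. It was at 2.79 to 18.5 CPM in wIFN-α animals at week 19 and at 18.4, 31.0, 18.3, 35.1 and 29.5 CPM in placebo animals. At the later week DBP was at 4.23 to 69.8 CPM and, in the same placebo animals, at 11.6, 12.1, 6.35, 15.8 and 8.02 CPM. The interaction was 2.22 (SE 0.349), and that of NPAS2, a partner of ARNTL, was -2.33 (SE 0.361), each with an adjusted p of 0.0939 (edgeR quasi-likelihood test, Benjamini-Hochberg). Of 19 clock genes, 7 were positive and 3 negative at an unadjusted p under 0.05, where 5.57% and 4.54% of all genes were. DESeq2 called 9 of the 19, 6 positive and 3 negative, and the edgeR test called 3 of them without F1022 and 3 without the 3 animals with muscle. The hour of each biopsy is not given in the sources used here, and its part in this result was not tested.

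Within each group, week 23 was then set against week 19. In the 5 placebo animals 1810 of 15826 genes were called (11.4%), of which 935 rose and 875 fell, and in the 6 wIFN-α animals 9 were (0.0569%), by the edgeR quasi-likelihood test. The wIFN-α count was 4 without M1012 or F1018, 3 without F1013 and 2 without F1022. The placebo count was 629 without M1005, 706 without F1019, 2801 without M1008 and 417 without the 3 animals whose week 19 biopsy holds muscle. The difference between the groups' changes is the interaction above, in which 0 genes were called. Of 20 fatty acid synthesis genes 15 fell in the placebo animals, which became 8 without M1005, 8 without F1016, 4 without F1019 and 1 without the 3 animals with muscle. In the wIFN-α animals 17 of the 20 were also lower under RLE normalization. Of these, 13 had an unadjusted p under 0.05 (9.21% of all genes in the main fit) and 0 were called. Without the animals with muscle 5 were under 0.05. Of 25 cholesterol synthesis genes 10 fell in the placebo animals, which became 4 without M1005, 3 without F1019, 2 without F1016 and 2 without the 3 animals with muscle. In the wIFN-α animals 21 of these were lower at an unadjusted p under 0.05 with 0 called, and 13 were without the animals with muscle. Of the 9 genes called in wIFN-α animals, PPP1R3A, MYOT, SMPX and MYH3 are genes of skeletal muscle, with log2 changes of -9.58, -9.53, -9.09 and -9.05. These moved with the muscle in the week 19 biopsies of F1013 and F1022. DHRS7C (-9.06) and C10orf71 (-10.03), also among the 9, fell by a similar amount.

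The same 15 animals were compared before dosing. The week -3 biopsies of F1018 and F1016 held much skeletal muscle, with summed muscle genes of 143000 and 166000 CPM. The lowest summed level of 18 hepatocyte genes at week -3 was 2980 CPM in the wIFN-α group and 6010 CPM in the placebo group. The group medians were 181000 and 170000 CPM. At week -3 the edgeR quasi-likelihood test called 0 of 14973 genes (0%), with 88 under an unadjusted p of 0.05, or 177 without these animals, and DESeq2 called 0. The change from week -3 to follow-up differed between groups for 0 of 16105 genes (0%) by the same test, and DESeq2 called 2. The number under an unadjusted p of 0.05 was 974 with a smallest adjusted p of 0.723. It was 1884 without F1016, 1923 without F1018 and 2071 without both week -3 biopsies, with 0 genes called in each and a smallest adjusted p of 0.149 in the last. In the test of all 15 animals the fatty acid synthesis genes had a median difference of 1.52 on the log2 scale, with 15 of 20 higher at an unadjusted p under 0.05, which became 8 without any one of M1003, M1008, F1014 and F1022. Of 18 neutrophil genes 10 were lower at that level, or 6 without F1014.

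Viral RNA in the liver was compared as the share of reads on the WHV entry, which counts all polyadenylated viral transcripts together. The share was taken relative to the total of reads on genes, which leaves out the WHV entry, and is given as RPM. At week 19 it was 377 to 33500 RPM (median 14530) in the 6 wIFN-α animals and 19150 to 30070 (median 24720) in the 5 placebo animals. The week 23 values were 459 to 26500 (median 18120) and 11050 to 31650 (median 20730). The groups overlapped at both weeks, and F1022 had the lowest value at both. In the paper F1022 was the treated animal that lost detectable viral surface antigen from serum. The difference of the mean log10 was -0.391 at week 19 (two-sided exact permutation p = 0.2446, adjusted over 3 tests 0.3669) and -0.304 at week 23 (exact permutation p = 0.1704, adjusted 0.3669). Without F1022 these became -0.107 and -0.03. At week 15 the difference was -0.377 (exact permutation p = 0.0223, 6 and 8 animals). The change from week -3 to 23 differed by -0.071 (exact permutation p = 0.9259, adjusted 0.9259). At week -3 the muscle-holding biopsies had 34.15 RPM in F1018 and 86.41 RPM in F1016, and at week 23 these animals had 14571 and 15648 RPM. The difference of the changes was -0.574 without F1018, 0.189 without F1016, 0.253 without F1022 and, chosen after seeing the data, -0.315 without both F1016 and F1018 (exact permutation p = 0.122).

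**Figure D5:**
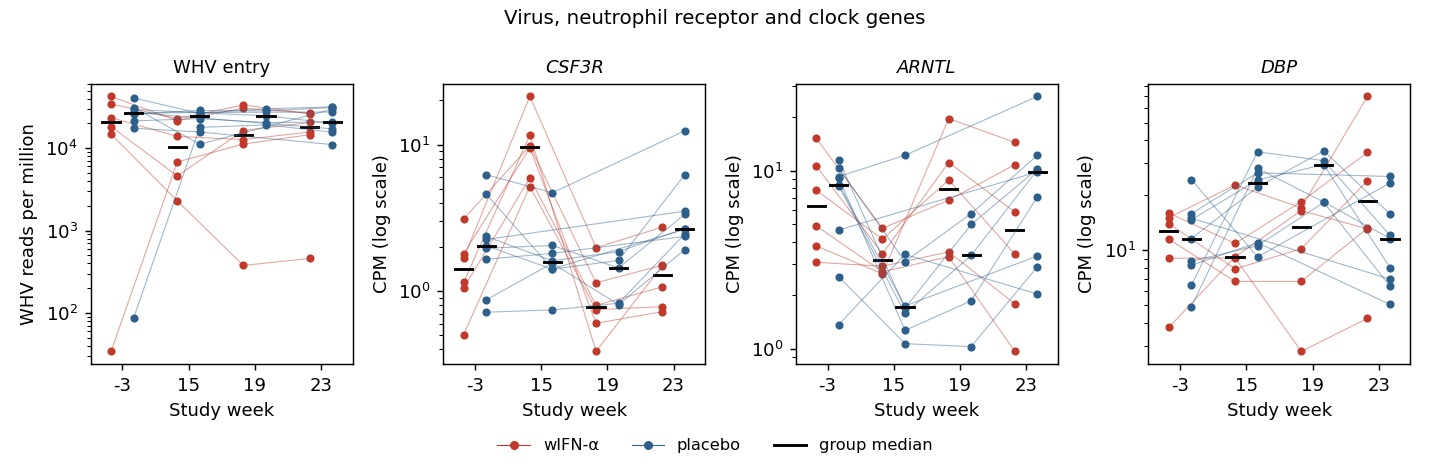
WHV RPM and the levels of CSF3R, ARNTL and DBP (CPM), on log scales, against study week, with 1 point per biopsy, lines joining biopsies of the same animal and black bars for group medians (red wIFN-α, blue placebo). WHV reads overlap between groups at weeks 19 and 23, with F1022 lowest at 377 and 459 RPM, and CSF3R at week 23 lies at 0.724 to 2.73 CPM in wIFN-α and 1.92 to 12.4 CPM in placebo animals.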

How the data were processed

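Poly(A) RNA libraries (TruSeq, Illumina 2500) of liver biopsies were sequenced by the authors, who mapped reads to a woodchuck transcriptome assembly with Bowtie2 and counted them with SAMtools. CASAVA, FastQC and DESeq are also named in the submitters' processing notes. The deposited values used here are expected counts per gene, not normalized. The RPKM values the authors deposited beside them were used only to check the unit. Files give human-style symbols without coordinates, and 0 columns lacked a sample.

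Runs of a biopsy (36 runs, 10 biopsies with several) were summed and rounded, library sizes and gene tests left out the WHV entry, and genes low in counts were removed by filterByExpr. Both weeks were fitted with voomLmFit (edgeR 4.0.16, limma 3.58.1, R 4.3.3), week as covariate and animal as random block (within-animal correlation 0.4183). Single weeks and within-animal changes used the edgeR quasi-likelihood test with TMM and Benjamini-Hochberg adjustment over all genes tested. Samples labelled with the same number were taken as the same animal. Over 13739 genes, deviations from group means correlated at a median of 0.493 in 11 same-animal pairs (0.134 to 0.742). In 154 other pairs the median was -0.038 (-0.625 to 0.411), so the ranges overlapped. Library depth sets counting error only. In the fits of a single week and of both weeks, p-values measure the spread between animals. In the interaction and the changes between weeks, where the animal is a fixed block, they measure how the within-animal changes vary. Viral reads used exact permutation tests (Python 3.11.15).

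The genes, lists and contrasts were chosen with earlier results of these data known. Named genes were those of the study's tables, the 12 with the smallest p in each direction in the fit of both weeks (mean CPM of 1 or more), the called genes of most extreme fold, and, per list, called members or else up to 3 with the smallest p. Others, MT2A among them, were named after their values were seen. The kit does not mark strand, so antisense reads cannot be told apart. Alternatives were DESeq2 1.42.0, RLE normalization, no count filter, the deepest run, sex or lane as covariate, other fold thresholds, M1004 included, no block, and animals left out. Counts were also simulated with dispersions fitted to these data, changing only genes with a mean CPM of 1 or more. Recovery needed an adjusted p under 0.05 in the right direction, without a fold threshold. On simulated data the fit of both weeks recovered 86% of genes changed 2-fold and 98% of those changed 4-fold, and called 10 unchanged genes. These shares do not give the number of real differences missed: BTNL2 (log2 fold change 2.28) and NNMT (1.91) were not called. The week 19 test recovered 67% and 92.9%, and the week 23 test 63% and 96%. For the interaction the shares were 85% and 97%, but its counts were simulated with less within-animal spread than was fitted. The rest went into animal effects that the block absorbs, so these 2 shares are too favourable. Some genes are not reported here.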

Additional observations from a re-analysis of the deposited data

Results flagged for a closer look

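Of 144 groups of 5 to 9 biopsies examined for a single outlying value, 12 had one. The groups were of WHV reads and of genes of this text, chosen with earlier results known, and they share animals. The nominal rate of about 5% of groups is therefore no measure of chance here. At week 23, wIFN-α animal F1018 stood apart from the other 5 in OBSL1 (41.3 CPM), AACS (4.24 CPM), STARD4 (18.2 CPM) and ALB (71100 CPM). At that week wIFN-α animal F1022 stood apart in GPT2 (15.3 CPM), placebo animal M1005 in ISG15 (518 CPM), placebo animal F1015 in S100A12 (42.1 CPM) and placebo animal M1009 in the muscle gene MYH2 (3.91 CPM). At week 19 placebo animal M1005 stood apart in MYH2 (2020 CPM) and in the actin gene ACTA1 (1080 CPM). In WHV reads wIFN-α animal F1022, a responder in the paper, was far below the other 5 at week 19 (377 RPM) and week 23 (459 RPM). The cause of these values was not tested.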

How the results depend on the processing

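The count of genes called over both weeks, 4 as reported, was 482 with DESeq2, 256 without the replicate block, 46 with lane as a covariate, 45 with counts summed per animal, 16 with sample weights, 15 with M1004 included, 2 at a fold above 2 and 1 in the 11 animals with both weeks. It was 0 with RLE normalization, without the filter on low counts, with the deepest run only, and, as alternatives chosen after seeing the data, without the 3 muscle biopsies and without M1005 and M1008. Leaving out single animals gave 0 to 18. In the fit over both weeks, DESeq2 and the fit without the replicate block take biopsies of the same animal as independent. The DESeq2 tests of a single week hold a single biopsy per animal. Those of the interaction and of the change from week -3 have the animal as a term. DESeq2 called 89 genes at week 19, 53 at week 23, 75 in the interaction and 2 in the change from week -3. Leaving out single animals gave 0 to 1 at week 19, 0 to 1 at week 23, 0 to 4 in the interaction, 629 to 2801 in the placebo change and 2 to 11 in the wIFN-α change. Without the 3 animals with muscle (added after seeing the data) these last 3 counts were 3, 417 and 3. In WHV reads single animals left out gave -0.497 to -0.107 at week 19, -0.383 to -0.03 at week 23 and -0.574 to 0.253 for the change from week -3, which was positive without placebo animal F1016 (0.189) and without wIFN-α animal F1022 (0.253). KRT14 at week 15 was -0.72 in the edgeR test and 0.70 with DESeq2. The cause of these shifts was not tested. Of 27685 values of single genes under the alternatives, 26319 kept their direction and their side of the threshold, 255 were no longer past it, 244 came past it, 1 reversed and 866 that were not called changed sign.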
